A study of Mus musculus with 12 samples.

Results

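Hearts of VEGFR1-deleted mice given a VEGF-B virus were set against hearts of wild-type mice given the same virus. The 6 hearts were taken by their labels from a series of 12 adult male C57Bl/6J mice, with 1 bead array per heart. The VEGFR1del_VEGFB group held 4 mice and the WT_VEGFB group held 2. The other arrays were 3 VEGFR1-deleted hearts (VEGFR1del_Scramble) and 3 wild-type hearts (WT_Scramble) given an adeno-associated virus (AAV) with a scramble control. VEGFR1 is encoded by Flt1, and deleted mice were Cdh5-Cre-ERT2; Flt1 flox/flox, in which tamoxifen switches on Cre recombinase under the endothelial Cdh5 promoter. The virus, AAV-VEGF-B or AAV-Scramble, was given i.p. The labels do not say whether the wild-type mice carried Cre or floxed alleles or received tamoxifen, and they give no age and no interval after the virus.

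VEGFR1 is a receptor tyrosine kinase of blood endothelium. Its ligands are VEGF-A, VEGF-B and PlGF, the placental growth factor, and it also acts as a trap that limits how much VEGF-A reaches VEGFR2. VEGF-B, made mainly by heart muscle and brown fat, binds VEGFR1 and neuropilin-1 but not VEGFR2, and its overexpression in rodent hearts enlarges the coronary vessels. Fatty acids are the main fuel of the adult heart, and their oxidation genes are under the lipid-sensing receptor PPAR-alpha.

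Across 14240 genes (a gene being its brightest probe, and an unnamed probe counting as a gene), none was called at an adjusted p under 0.05 between VEGFR1del_VEGFB and WT_VEGFB (0% called, limma on all 12 arrays). The smallest adjusted p was 0.0696. At an unadjusted p under 0.05 there were 1572 genes (11.0% of those tested), 813 higher (5.71%) and 759 lower (5.33%) in VEGFR1del_VEGFB. That split moved with the scaling of the arrays, to 473 higher and 741 lower with median scaling, and to 1572 higher and 496 lower on the authors' normalized values. The log2 fold changes were small, with a median of 0.00, a 5th percentile of -0.33 and a 95th percentile of 0.36, against a median standard error (SE) of 0.15. Values below are log2 signals of single hearts, or log2 fold changes of VEGFR1del_VEGFB over WT_VEGFB with their SE. Counts of list members at an unadjusted p under 0.05 are to be read beside the shares of all genes, 5.71% higher and 5.33% lower. Small counts often lie near these shares.

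The library labelled VEGFR1del_Scramble replicate 3 had a wild-type-like Flt1 signal. Its whole profile was also closer to the WT_VEGFB hearts (correlations of 0.9924 and 0.9926) than to the other VEGFR1del_Scramble hearts (0.9893 to 0.9904). On the first principal component of all arrays it lay at -3.75. The WT_VEGFB hearts lay there at -3.91 and -1.80, and the other VEGFR1del_Scramble hearts at 11.1 and 10.3. The reason for this likeness was not tested. By its label this library lies in neither compared group, but it shares their normalization, detection filter and estimate of the spread, which for genes such as Flt1 it widens. Without it (11 arrays, 14116 genes) 6 genes were called (0.0425%), 3 higher and 3 lower, and these are the genes for which a rise or fall is stated. A fit of the 6 VEGF-B arrays alone called 3 of them, Flt1, ILMN_2476405 and Dip2c. The library left out was singled out by its values, among them Flt1. Leaving it out narrows the spread of genes such as Flt1 and ILMN_2476405, so their calls on 11 arrays are not independent of that choice. The authors' own table shows that the arrays were quantile normalized in 3 sets, with the 4 VEGFR1del_VEGFB arrays in one set and both WT_VEGFB arrays, with that library, in another. If the sets were also batches, which is not stated, set and deletion cannot be told apart here. With the set as a random block 0 genes were called and 1530 had an unadjusted p under 0.05 (limma). This fit cannot show a set effect on the comparison, since each compared group lies within a single set. On the 6 arrays the median signal was 104.6 to 111.5 and 17516 to 18210 probes were detected. The first principal component of these 6 arrays held 30.3% of their variance, and the VEGFR1del_VEGFB hearts lay at -12.6, -6.79, -10.8 and -4.14, against 13.1 and 21.2 for the WT_VEGFB hearts.

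Flt1 was lower in all 4 VEGFR1del_VEGFB hearts than in both WT_VEGFB hearts. Its signal was 9.00, 9.36, 8.93 and 9.47 in VEGFR1del_VEGFB hearts, against 11.51 and 11.22 in WT_VEGFB hearts. The groups did not overlap, and the highest deleted heart lay well under the lower wild-type heart. Flt1 fell by 2.17 on the log2 scale, or 4.51-fold (SE 0.16, adjusted p = 0.000102, limma on 11 arrays). On 12 arrays the same difference had an SE of 0.65 and an adjusted p = 0.261 (limma). A second Flt1 probe was detected in 0 of 4 VEGFR1del_VEGFB hearts and in both WT_VEGFB hearts, where it gave 6.03 and 5.79, which is at least 2.11-fold lower in VEGFR1del_VEGFB. The first probe stayed above background in all 4 deleted hearts. In whole heart, fewer cells of a type and less RNA per cell cannot be told apart, here and in every comparison below.

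The other 5 called genes followed the same division of the hearts. The probe ILMN_2476405, which has no gene in the platform annotation, gave 9.54, 9.63, 9.50 and 8.99 in VEGFR1del_VEGFB hearts, against 4.50 and 4.70 in WT_VEGFB hearts, where it was not detected. It was at least 24.1-fold higher (adjusted p = 2.74e-08, limma on 11 arrays). Csprs gave 8.36, 7.68, 7.85 and 7.81 in VEGFR1del_VEGFB hearts, against 6.72 and 6.15 in WT_VEGFB hearts, and rose by 1.49 (SE 0.19, adjusted p = 0.0186, limma on 11 arrays). No value of these groups overlapped for either feature.

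Plk2, a serine/threonine kinase, gave 8.96, 9.04, 8.78 and 8.72 in VEGFR1del_VEGFB hearts, against 7.89 and 8.10 in WT_VEGFB hearts. It rose by 0.88 (SE 0.13, adjusted p = 0.0387, limma on 11 arrays). Dip2c gave 5.47, 5.65, 5.52 and 5.51 in VEGFR1del_VEGFB hearts, against 6.65 and 6.61 in WT_VEGFB hearts, and fell by 1.09 (SE 0.10, adjusted p = 0.000484, limma on 11 arrays). All 4 deleted hearts were thus above both wild-type hearts for Plk2 and below both for Dip2c. Nmrk2, a nicotinamide riboside kinase of muscle that feeds NAD synthesis, gave 7.17, 7.24, 7.46 and 7.22 in VEGFR1del_VEGFB hearts, against 8.03 and 8.13 in WT_VEGFB hearts. It fell by 0.81 (SE 0.12, adjusted p = 0.0387, limma on 11 arrays), with no overlap.

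**Figure D1:**
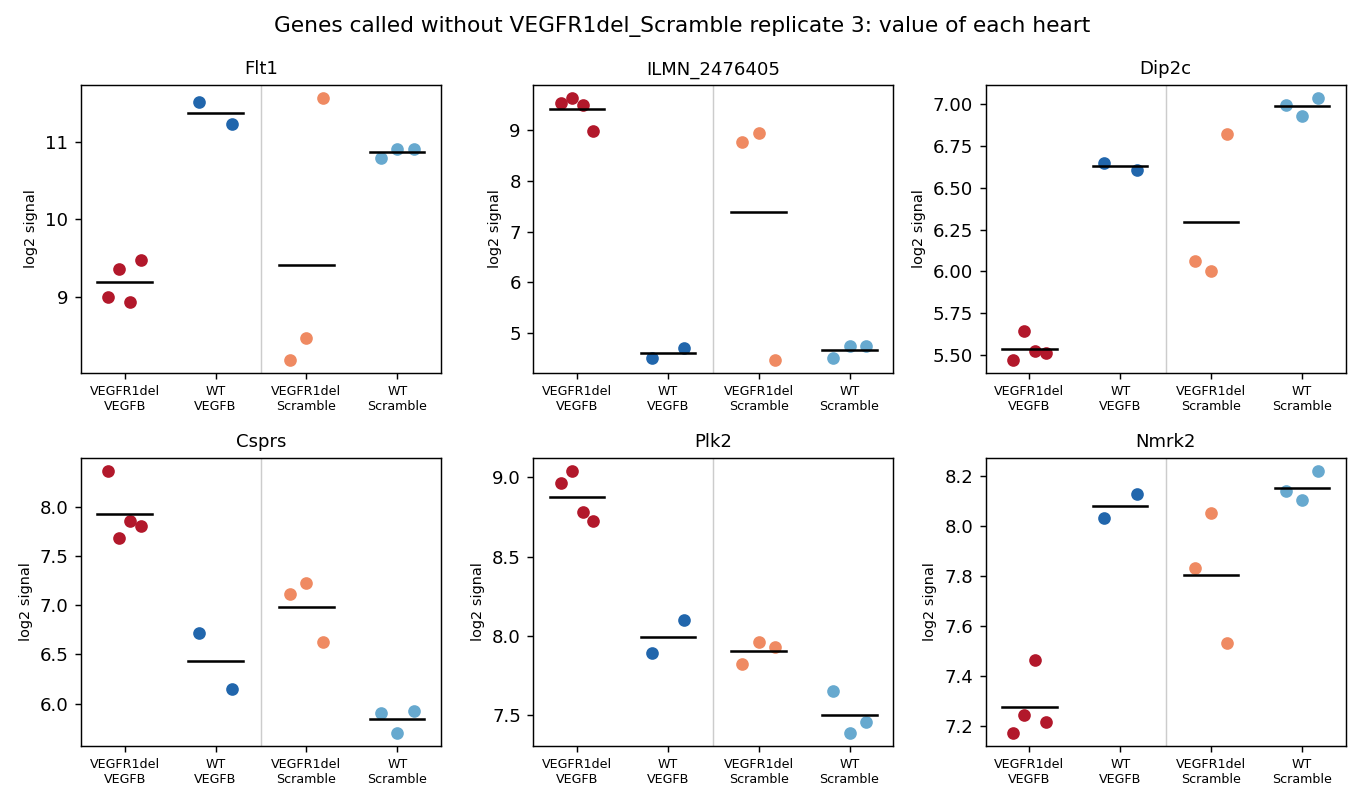
Log2 signal (y axis) of the 6 genes called on 11 arrays, 1 point per heart and a bar at the group mean, in VEGFR1del_VEGFB, WT_VEGFB, VEGFR1del_Scramble and WT_Scramble hearts from left to right. The 4 VEGFR1del_VEGFB hearts stand apart from both WT_VEGFB hearts in each panel, and 1 VEGFR1del_Scramble heart lies with the wild-type hearts for Flt1 (11.56) and ILMN_2476405 (4.47).

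The deletion with scramble virus shares no array with the deletion on top of VEGF-B, so the 2 effects can be set side by side. The deletion with scramble virus called 8 genes (0.0562%) on 12 arrays and 9 (0.0638%) on 11. Of the 6 calls with VEGF-B on 11 arrays, 4 were among those 9, namely Flt1, ILMN_2476405, Csprs and Dip2c. On 11 arrays the changes of Flt1, Csprs and Dip2c with VEGF-B were -2.17, 1.49 and -1.09, and with scramble virus -2.54, 1.32 and -0.96. The 11 arrays leave out the deleted heart with a wild-type-like Flt1 signal, and on 12 arrays none of these 4 was called with either virus. There, with scramble virus, Flt1, Csprs and Dip2c differed by -1.46, 1.14 and -0.69 (adjusted p = 0.377, 0.055 and 0.106, limma). The probe ILMN_2476405 gave 8.78 and 8.94 in the VEGFR1del_Scramble hearts kept on 11 arrays, against 4.51, 4.74 and 4.74 in WT_Scramble hearts, where it was not detected. Plk2 (0.88 with VEGF-B and 0.40 with scramble) and Nmrk2 (-0.81 and -0.21) were called only on top of VEGF-B, and the difference was not called for either (interaction adjusted p = 0.833 and 0.714, limma on 11 arrays). Across 14116 genes the 2 effects had a Pearson correlation of 0.29, given as a description, since genes of one array are not independent and all arrays were normalized together.

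The remaining VEGF ligands and receptors showed no called difference on 12 or 11 arrays. Flt4, which encodes the lymphatic receptor VEGFR3, gave 5.12, 5.16, 5.17 and 5.65 in VEGFR1del_VEGFB hearts, against 4.90 and 4.80 in WT_VEGFB hearts (0.43, SE 0.15, adjusted p = 0.345, limma). All 4 deleted hearts were higher, but only 1 of the WT_VEGFB hearts had a detected signal. Nrp1, the co-receptor that binds VEGF-B, was at 11.97, 11.96, 12.12 and 12.07 in VEGFR1del_VEGFB against 11.86 in both WT_VEGFB hearts (0.17, SE 0.12). For Nrp1, too, all 4 deleted hearts were higher, though by little. Nrp2 differed by 0.24 (SE 0.18), with overlapping groups.

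Kdr, which encodes VEGFR2, was detected in 2 of 4 VEGFR1del_VEGFB hearts and 1 of 2 WT_VEGFB hearts, so its probe gives no usable level. Among the ligands, Vegfa differed by -0.28 (SE 0.18), Vegfb by -0.17 (SE 0.11), Vegfc by -0.14 (SE 0.25), Vegfd by -0.07 (SE 0.27) and Pgf by -0.10 (SE 0.19). Their groups overlapped, and Pgf lay near background. Whether the Vegfb probe reads the viral transcript is not known.

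Among all other genes with a symbol, 15 per direction were named by their smallest p. None was called on 12 arrays, their adjusted p ran from 0.0696 to 0.122 (limma), and none overlapped between the groups. Genes whose groups did not overlap were common, at 1565 higher (11.0%) and 1587 lower (11.1%) of those tested. Beside Plk2 and Csprs, the higher ones were Klf6, Slc13a4, Samd9l, Tnfrsf22, Rab27a, Tcirg1, Cd300lg, Lman1l, Vwf, Lpar4, Ace, Ifi213 and Bub1b, with log2 fold changes of 0.51 to 0.96.

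Several of these are endothelial. Vwf, the von Willebrand factor stored in endothelial granules, gave 10.54, 10.64, 10.64 and 10.45 in VEGFR1del_VEGFB hearts, against 9.64 and 9.76 in WT_VEGFB hearts (0.87, SE 0.18, adjusted p = 0.122, limma). Cd300lg, a receptor of capillary endothelium, gave 10.28, 10.08, 10.33 and 10.15, against 9.69 and 9.71 in WT_VEGFB hearts (0.51, SE 0.10). The angiotensin-converting enzyme gene Ace differed by 0.56 (SE 0.11) and the lysophosphatidic acid receptor Lpar4 by 0.73 (SE 0.15). In each of these 4 genes the lowest deleted heart was above the higher wild-type heart. Klf6, a zinc finger transcription factor, was at 9.83, 10.17, 9.72 and 10.07 in VEGFR1del_VEGFB hearts against 9.15 and 9.24 in WT_VEGFB hearts (0.75, SE 0.14).

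The lower ones, beside Dip2c and Nmrk2, were Adhfe1, Fyco1, Slc27a1, Lgals4, Armh4, Mpig6b, Ces1d, Gp5, Tafa5, Acadl, Nipsnap2, Lypd2 and Gpt, with log2 fold changes of -1.22 to -0.53. Slc27a1, a fatty acid transport protein, gave 8.14, 8.20, 8.22 and 8.14 in VEGFR1del_VEGFB hearts, against 8.92 and 8.88 in WT_VEGFB hearts (-0.72, SE 0.12, adjusted p = 0.105, limma). Adhfe1, a mitochondrial enzyme, gave 7.49, 7.51, 7.17 and 7.72, against 8.45 and 8.36 in WT_VEGFB hearts (-0.93, SE 0.15). Deleted hearts were lower in each case by more than the spread within either group. The lipid hydrolase Ces1d differed by -0.84 (SE 0.16), the autophagosome adaptor Fyco1 by -0.71 (SE 0.12) and the galectin Lgals4 by -1.22 (SE 0.22). Gp5, which encodes a platelet glycoprotein, was detected in 0 of 4 VEGFR1del_VEGFB hearts and both WT_VEGFB hearts, at least 1.28-fold lower in VEGFR1del_VEGFB.

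**Figure D2:**
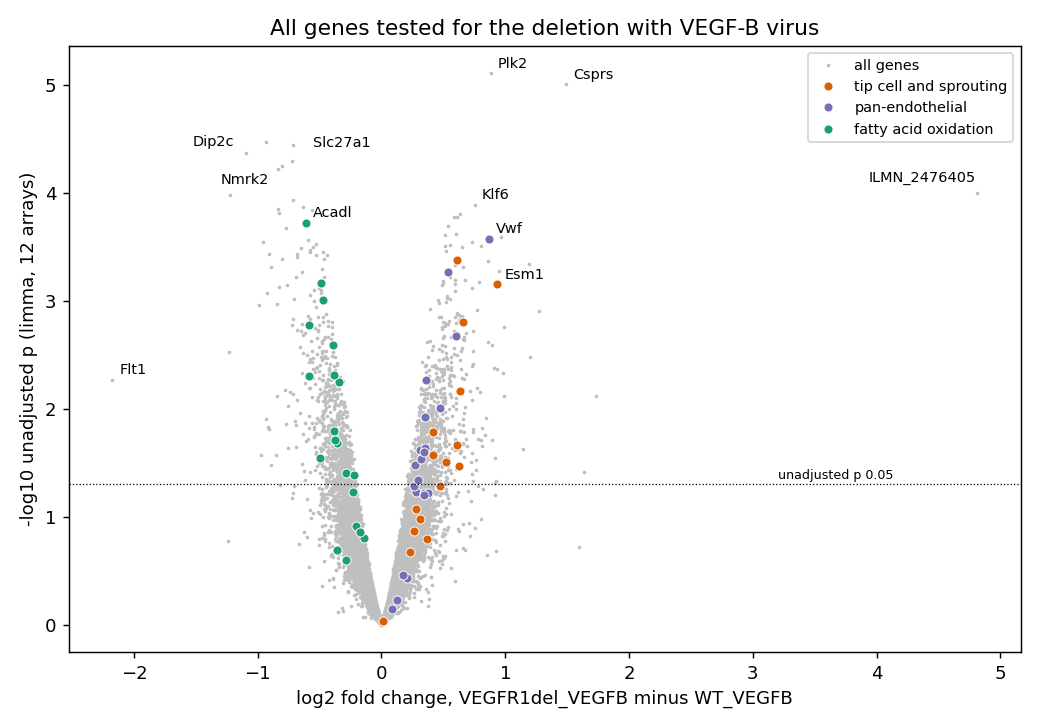
Each point is 1 of 14240 genes, with the log2 fold change of VEGFR1del_VEGFB over WT_VEGFB on the x axis and -log10 of the unadjusted p (limma, 12 arrays) on the y axis, and members of 3 gene lists in colour. Measured fatty acid oxidation genes all lie left of 0, and measured tip cell and pan-endothelial genes all lie right of it; Flt1 and ILMN_2476405 lie far out with modest p because of the wide spread that the doubted library gives them, and the position of ILMN_2476405 is taken against undetected WT_VEGFB signals.

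Genes of mitochondrial fatty acid oxidation were lower as a group in VEGFR1del_VEGFB hearts. Of 22 listed genes 20 passed the detection filter, and their median log2 fold change was -0.37, against 0.00 over all genes. All 20 lay below 0, where 50.5% of all genes lay above it, and 14 had an unadjusted p under 0.05, where 5.33% of all genes were lower by that rule. None was called after adjustment. The groups did not overlap for 17 of the 20, where 11.1% of all genes were lower without overlap. Without WT_VEGFB replicate 1 the count at an unadjusted p under 0.05 was 7 and the median -0.31, and over all 12 arrays left out in turn the count ran from 7 to 15.

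Acadl, the long-chain acyl-CoA dehydrogenase, gave 9.81, 9.77, 9.68 and 9.82 in VEGFR1del_VEGFB hearts, against 10.43 and 10.33 in WT_VEGFB hearts (-0.61, SE 0.12, adjusted p = 0.122, limma). Acaa2, the thiolase of the last step of the cycle, gave 11.42, 11.65, 11.84 and 11.76, against 12.27 and 12.24 in WT_VEGFB hearts (-0.58, SE 0.15, adjusted p = 0.191, limma). Neither gene overlapped between the groups, and the mean difference was larger than the range within either group. Etfdh, which passes the electrons of fatty acid oxidation to the respiratory chain, differed by -0.48 (SE 0.11). The isomerase Eci1 differed by -0.47 (SE 0.11), with VEGFR1del_VEGFB replicate 1 the lowest at 11.64.

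Targets of PPAR-alpha had a median of -0.35 over 16 of 22 listed genes, all below 0, and 8 had an unadjusted p under 0.05. The groups did not overlap for 10, against 11.1% of all genes in that direction. The list shares members with the oxidation list. Without WT_VEGFB replicate 1 the count was 3 and the median -0.20, and without WT_VEGFB replicate 2 the median was -0.53. Acot1, an acyl-CoA thioesterase, gave 7.96, 8.42, 8.91 and 8.34 in VEGFR1del_VEGFB hearts, against 10.20 and 9.07 in WT_VEGFB hearts (-1.23, SE 0.34, adjusted p = 0.233, limma). Angptl4, a secreted inhibitor of lipoprotein lipase, gave 6.88, 6.15, 7.13 and 6.71, against 7.96 and 7.33 in WT_VEGFB hearts (-0.93, SE 0.32). For both genes all deleted hearts were lower, and the WT_VEGFB hearts were themselves far apart.

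Pdk4, a kinase that holds back glucose oxidation, gave 9.53, 9.43, 10.21 and 10.56 in VEGFR1del_VEGFB hearts, against 10.82 and 10.88 in WT_VEGFB hearts (-0.92, SE 0.33, adjusted p = 0.342, limma). Ucp3, a mitochondrial carrier, gave 4.72, 4.87, 5.51 and 4.92, against 5.85 and 5.97 in WT_VEGFB hearts (-0.91, SE 0.32), and was detected in 3 of 4 deleted hearts. On the authors' values Ucp3 differed by -0.28. Of 18 measured genes for fatty acid uptake and lipid storage, 3 were lower at an unadjusted p under 0.05, Slc27a1, Plin4 and Angptl4, and Gpihbp1, which carries lipoprotein lipase across capillary endothelium, was higher by 0.32 (SE 0.13). Gpihbp1 was past that p in no fit that left out VEGFR1del_VEGFB replicate 1 or 4 or either WT_VEGFB heart. The median of that list was -0.12, and -0.02 without WT_VEGFB replicate 1.

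Downstream of fatty acid oxidation the differences were smaller. The tricarboxylic acid cycle had a median of -0.20 over 14 of 17 listed genes, and 6 were lower at an unadjusted p under 0.05, but 0 without WT_VEGFB replicate 2, where the median was -0.12. Suclg2, a subunit of succinyl-CoA ligase, differed by -0.39 (SE 0.12), fumarase (Fh1) by -0.38 (SE 0.13), and Sdhc and Mdh2 each by -0.28 (SE 0.10). Oxidative phosphorylation had a median of -0.12 over 28 of 31 listed genes. At an unadjusted p under 0.05, 2 were lower, Cyc1 (-0.28) and Uqcrq (-0.46), near the share of all genes (5.33%). There were 0 without VEGFR1del_VEGFB replicate 4 or WT_VEGFB replicate 2, and 1 without VEGFR1del_VEGFB replicate 2. Glucose uptake and glycolysis had a median of -0.08 over 21 of 25. The platelet-type phosphofructokinase Pfkp was higher by 0.43 (SE 0.12), and 4 genes were lower, among them Fbp2 (-0.74, SE 0.23), Pdk2 (-0.37, SE 0.14) and Eno3 (-0.25, SE 0.11). Only 2 were lower without VEGFR1del_VEGFB replicate 1 or WT_VEGFB replicate 1, and 1 without WT_VEGFB replicate 2.

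Markers of ventricular cardiomyocytes, cells rich in these enzymes, had a median of 0.03 over 12 of 13 listed genes, and 0 had an unadjusted p under 0.05. Their summed linear signal was 161070 to 166590 in VEGFR1del_VEGFB hearts and 158010 to 162880 in WT_VEGFB hearts. None of the 12 was undetected. The groups overlapped in that sum and for 9 of the 12 markers, while Tnnc1 and Myl3 were higher in all 4 VEGFR1del_VEGFB hearts and Pln (-0.25) was lower. Several of these markers lay near the top of the signal range, such as Myl2 at 14.37 to 14.55 in VEGFR1del_VEGFB hearts.

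**Figure D3:**
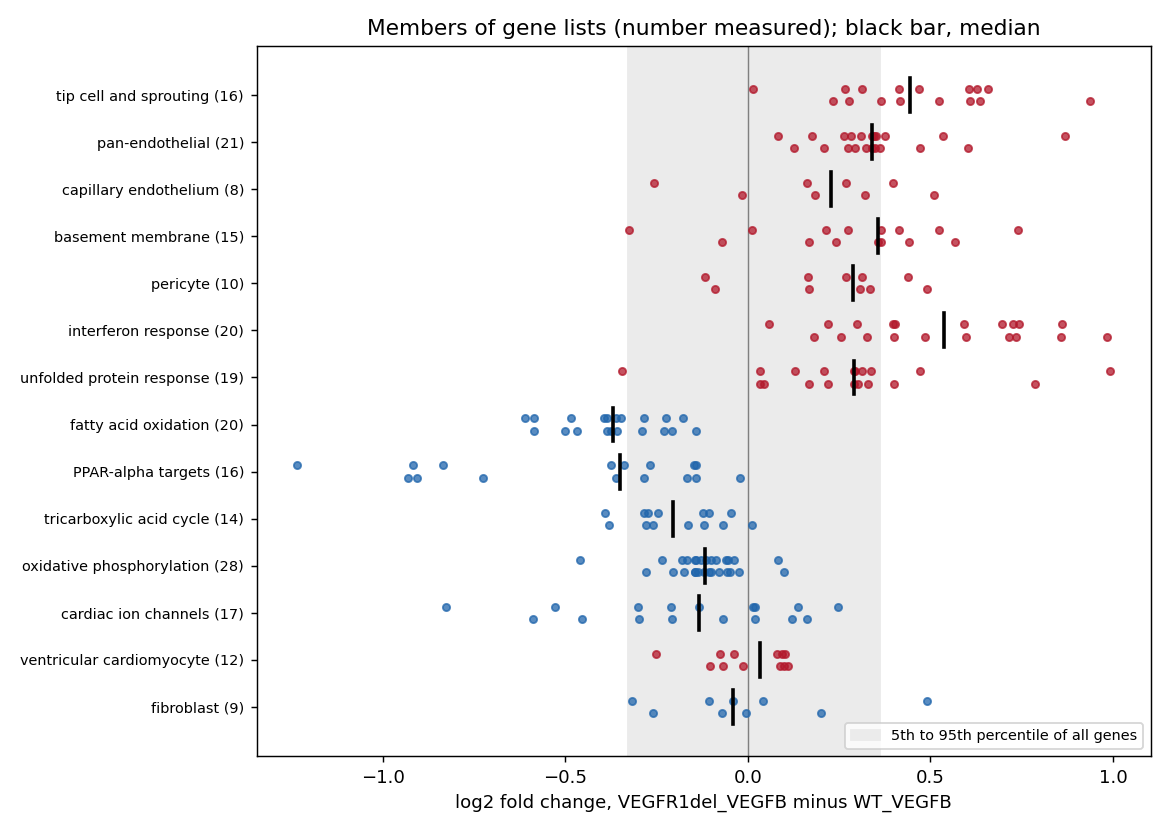
Log2 fold change of VEGFR1del_VEGFB over WT_VEGFB (x axis) for every measured member of 14 gene lists, 1 point per gene, in red where the list's median (black bar) is above 0 and blue where it is below, over a grey band from the 5th (-0.33) to the 95th (0.36) percentile of all genes. Fatty acid oxidation and PPAR-alpha targets lie to the left, tip cell, endothelial, basement membrane and interferon genes to the right, and ventricular cardiomyocyte and fibroblast markers around 0.

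Endothelial genes were higher in VEGFR1del_VEGFB hearts. Of 24 pan-endothelial markers 21 passed the filter, with a median of 0.34. All 21 lay above 0, and 12 had an unadjusted p under 0.05, against 5.71% of all genes in that direction. None was called after adjustment. The groups did not overlap for 15, where 11.0% of all genes were higher without overlap. Without WT_VEGFB replicate 2 the count was 4 with a median of 0.30. The summed linear signal of the 21 was 44984 to 48434 in VEGFR1del_VEGFB hearts and 35590 to 37011 in WT_VEGFB hearts, and none was undetected.

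Cdh5, which encodes VE-cadherin and whose promoter drives the Cre, gave 10.26, 9.84, 10.17 and 10.30 in VEGFR1del_VEGFB hearts, against 9.56 and 9.53 in WT_VEGFB hearts (0.60, SE 0.16, adjusted p = 0.207, limma). Whether the Cre transgene adds signal to this probe was not tested. Mmrn2, an endothelial matrix glycoprotein, gave 11.13, 10.97, 11.05 and 10.99, against 10.63 and 10.37 in WT_VEGFB hearts (0.53, SE 0.12, adjusted p = 0.136, limma). Robo4 differed by 0.36 (SE 0.11). The groups were separate for all 3 genes.

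Genes of tip cells, the leading cells of vessel sprouts, had a median of 0.44 over 16 of 18 listed genes. All 16 lay above 0, 9 had an unadjusted p under 0.05 (5.71% of all genes were higher by that rule) and the groups did not overlap for 11 (11.0% of all genes). Without WT_VEGFB replicate 1 the count was 4. These genes are expressed by endothelium, and the part of the higher endothelial marker signal in their values was not tested. Dll4, a Notch ligand of tip cells, gave 6.42, 6.49, 6.35 and 6.52 in VEGFR1del_VEGFB hearts, against 5.74 and 5.94 in WT_VEGFB hearts (0.61, SE 0.13, adjusted p = 0.124, limma). Esm1, a proteoglycan secreted by tip cells, gave 9.63, 9.80, 9.18 and 10.03, against 8.70 and 8.75 in WT_VEGFB hearts (0.94, SE 0.21, adjusted p = 0.144, limma). Cxcr4, the receptor for the chemokine Cxcl12, differed by 0.66 (SE 0.17) and the netrin receptor Unc5b by 0.64 (SE 0.20). Deleted hearts were above wild-type hearts throughout these 4 genes.

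Lists of the vessel wall around the endothelium also had medians above 0. Basement membrane genes had a median of 0.36, with all 15 listed genes measured. Of these 9 were higher and 1, the laminin Lama5 (-0.33), was lower at an unadjusted p under 0.05, but only 2 were higher without WT_VEGFB replicate 1. Col18a1, the collagen from which endostatin is cut, gave 9.48, 9.31, 9.62 and 9.45 in VEGFR1del_VEGFB hearts, against 8.87 and 8.59 in WT_VEGFB hearts (0.74, SE 0.20, adjusted p = 0.232, limma). The type IV collagen genes Col4a2 and Col4a1 differed by 0.44 (SE 0.13) and 0.41 (SE 0.15), and Sparc by 0.37 (SE 0.13). The 10 pericyte markers had a median of 0.29, and 5 had an unadjusted p under 0.05. Their number was 1 without WT_VEGFB replicate 2, 2 without WT_VEGFB replicate 1 or VEGFR1del_VEGFB replicate 4, and 3 without VEGFR1del_VEGFB replicate 2. Pdgfrb, the PDGF receptor of pericytes, differed by 0.44 (SE 0.15) and Rgs5 by 0.49 (SE 0.18). Interstitial matrix genes had a median of 0.28 over 19 of 23, with 3 higher, Bgn (0.46, SE 0.11), Ccn5 (0.54, SE 0.20) and Loxl1 (0.29, SE 0.12). Without WT_VEGFB replicate 1 that median was 0.13.

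Lists of endothelial subtypes had medians between -0.24 and 0.28. Capillary markers had one of 0.23 over 8 of 10, with 4 higher at an unadjusted p under 0.05. That number was 1 without VEGFR1del_VEGFB replicate 1 or either WT_VEGFB heart, and 2 without VEGFR1del_VEGFB replicate 4. Venous markers had a median of 0.28 over 6 of 7, led by Vwf and Plvap (0.66, SE 0.17). Arterial markers had a median of 0.13 over 8 of 9, with Gja4 (0.55, SE 0.16) and Mecom (0.41, SE 0.14) higher, and 0 higher without WT_VEGFB replicate 2. In that fit the capillary median was 0.12 and the arterial one 0.29. The lymphatic list had a median of -0.24 over all 7, its only gene at an unadjusted p under 0.05 being Flt4, and Ccl21a (-0.72, SE 0.36), Reln (-0.42, SE 0.24) and Lyve1 (-0.30, SE 0.20) overlapped between the groups. Notch pathway genes had a median of 0.06 over 11 of 14, with 2 higher, Dll4 and Notch4 (0.42, SE 0.13). Fibroblast markers had a median of -0.04 over 9 of 9 with 0 in either direction, and smooth muscle markers one of -0.10 over 7 of 8, with Myh11 (-0.54, SE 0.21) lower. Without WT_VEGFB replicate 2 neither Flt4 nor Myh11 was past that p.

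**Figure D4:**
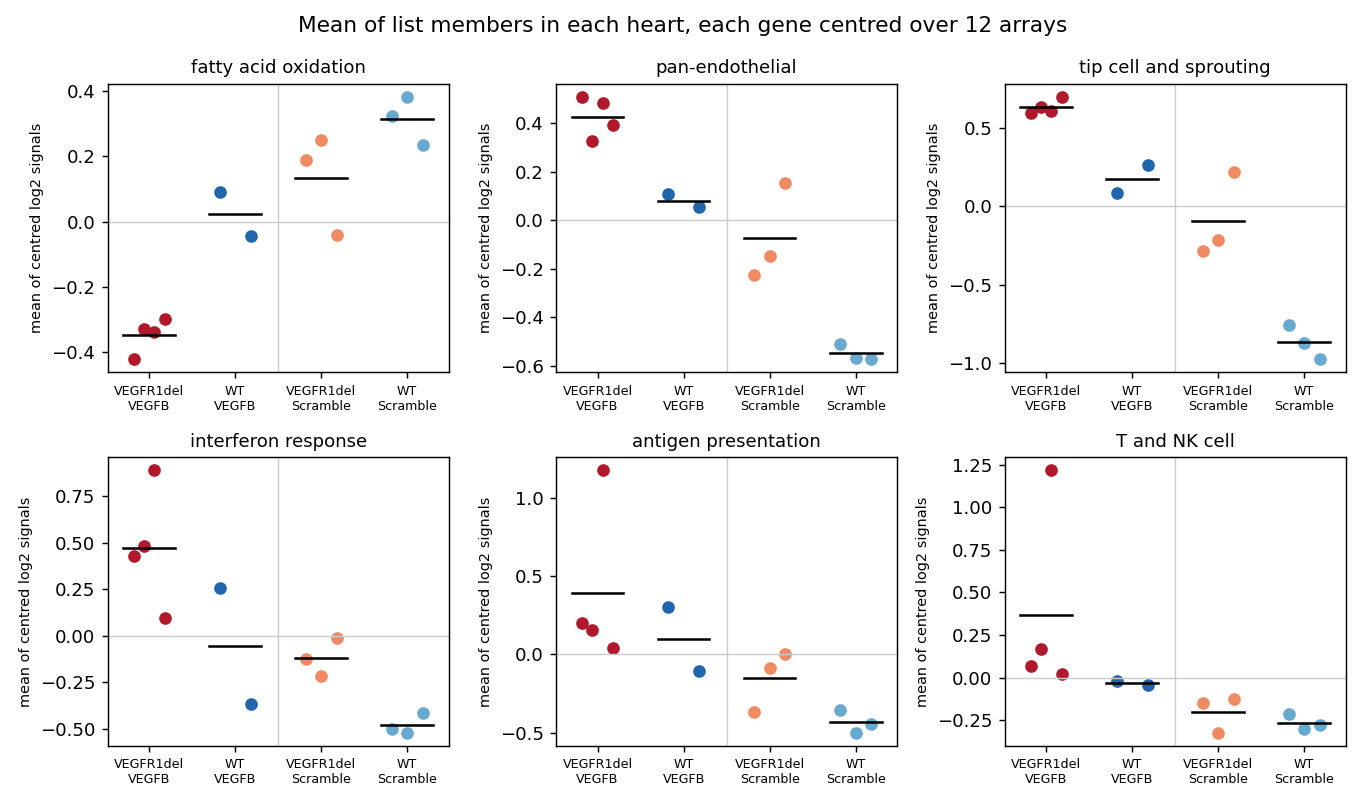
Mean over list members (y axis, log2 signals with each gene centred over the 12 arrays) in each heart, with a bar at the group mean, for 6 lists in VEGFR1del_VEGFB, WT_VEGFB, VEGFR1del_Scramble and WT_Scramble hearts from left to right. For fatty acid oxidation the VEGFR1del_VEGFB hearts sit between -0.42 and -0.30 and the WT_VEGFB hearts at 0.09 and -0.04; for antigen presentation and T and NK cells a single VEGFR1del_VEGFB heart, at 1.17 and 1.22, stands above its group.

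Stress and hypertrophy genes of heart muscle were partly higher. The list of fetal and hypertrophic genes had a median of 0.41 over 10 of 12, all above 0, with 3 at an unadjusted p under 0.05. Without WT_VEGFB replicate 2 the median was 0.19. Nppa, which encodes atrial natriuretic peptide, gave 14.42, 13.53, 13.89 and 13.85 in VEGFR1del_VEGFB hearts, against 12.85 and 13.18 in WT_VEGFB hearts (0.91, SE 0.26, adjusted p = 0.252, limma). Ankrd1, a titin-associated protein of the stretched sarcomere, differed by 0.46 (SE 0.12) without overlap. Acta1, skeletal alpha-actin, gave 14.07, 14.28, 14.40 and 14.21, against 14.09 and 12.87 in WT_VEGFB hearts (0.76, SE 0.31), so WT_VEGFB replicate 2 alone lay apart. Nppb, the other natriuretic peptide, differed by 0.72 (SE 0.37).

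Of 17 measured cardiac ion channel genes (of 22), 3 were lower at an unadjusted p under 0.05 and none higher, with a median of -0.13 (-0.05 without VEGFR1del_VEGFB replicate 4). Kcnv2, a silent potassium channel subunit, gave 6.73, 6.80, 6.63 and 6.47 in VEGFR1del_VEGFB hearts, against 7.81 and 7.16 in WT_VEGFB hearts (-0.83, SE 0.19, adjusted p = 0.147, limma). Kcnd2 (-0.59, SE 0.21) and Kcnip2 (-0.53, SE 0.19), a pore subunit and an accessory subunit of the transient outward current, were lower in all 4 deleted hearts too. Unfolded protein response genes had a median of 0.29 over 19 of 23, with 5 higher (2, and a median of 0.15, without WT_VEGFB replicate 2). The endoplasmic reticulum chaperone genes Pdia4 and Sdf2l1 differed by 0.79 (SE 0.18) and 0.99 (SE 0.25), Syvn1 by 0.30 (SE 0.10), and Hspa5, detected in 1 of 2 WT_VEGFB hearts, by 0.47 (SE 0.17).

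Interferon response genes had a median of 0.54 over 20 of 27, the highest of the 14 lists plotted, and all 20 lay above 0. The median and its rank moved with single hearts, and it was 0.18 without WT_VEGFB replicate 2 (0.54 for tip cell genes in the same fit) and 0.84 without WT_VEGFB replicate 1. At an unadjusted p under 0.05 there were 10, but only 4 separated the groups, Oasl2, Isg15, Ifit2 and Ifit3, and the count was 1 without WT_VEGFB replicate 2 and 14 without WT_VEGFB replicate 1. Isg15, a ubiquitin-like protein, gave 8.30, 8.40, 8.74 and 7.74 in VEGFR1del_VEGFB hearts, against 7.66 and 7.20 in WT_VEGFB hearts (0.86, SE 0.23, adjusted p = 0.215, limma). Ifit3, an antiviral protein, gave 9.62, 9.61, 10.28 and 9.32, against 9.26 and 8.19 in WT_VEGFB hearts (0.98, SE 0.29, adjusted p = 0.255, limma). VEGFR1del_VEGFB replicate 3 was highest and WT_VEGFB replicate 2 lowest for both. Oasl2 differed by 0.86 (SE 0.18) and Ifit2 by 0.74 (SE 0.21).

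Because these genes were high and low in the same hearts, their promoters were searched for the core of the interferon-stimulated response element, a pair of GAAA separated by any 2 bases, on either strand, in the 250 bases before the gene's start (RefSeq promoters, GRCm38.p6). It was present in 9 of the 18 promoters that the table holds for 15 measured list genes, and in 2.98% of all 32851 promoters. The list was chosen as interferon response genes, so this share describes the list and not these hearts. Oasl2 and Ifit2, which also separated the groups, were not among the genes with a match, either for lack of one or because no promoter was held. The promoters of Isg15 (chr4:156200819-156201068, minus strand) and Ifit3 (chr19:34583279-34583528, plus strand) are shown 5′ to 3′ along the gene, with matches in capitals. Overlapping matches join into one run in Isg15.
Isg15: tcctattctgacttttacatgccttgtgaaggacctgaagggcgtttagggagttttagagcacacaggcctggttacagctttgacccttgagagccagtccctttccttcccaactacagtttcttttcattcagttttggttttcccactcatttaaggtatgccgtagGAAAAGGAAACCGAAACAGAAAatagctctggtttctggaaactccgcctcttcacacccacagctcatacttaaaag
Ifit3: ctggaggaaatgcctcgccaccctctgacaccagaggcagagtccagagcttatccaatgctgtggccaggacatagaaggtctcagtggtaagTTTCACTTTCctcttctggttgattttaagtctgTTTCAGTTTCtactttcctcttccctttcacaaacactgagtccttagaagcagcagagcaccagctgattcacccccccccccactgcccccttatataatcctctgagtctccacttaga
A match describes the letters only. For the fatty acid oxidation list a pair of AGGNCA separated by any 1 base was searched, one form of the element that PPAR-alpha binds. It was found in 0 of 17 promoters in the same window, and in 0.338% of all promoters. At so low a share a count of 0 was likely for any list of this size, so no conclusion is drawn from it.

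Immune cell lists were uneven between hearts of one group. Antigen presentation genes had a median of 0.29 over 15 of 15 and 3 with an unadjusted p under 0.05, H2-D1 (0.49, SE 0.20), H2-T23 (0.49, SE 0.21) and H2-K1 (0.59, SE 0.27), but 0 without VEGFR1del_VEGFB replicate 3 or without WT_VEGFB replicate 2, and 1 without VEGFR1del_VEGFB replicate 1. The median was 0.06 without VEGFR1del_VEGFB replicate 3, 0.09 without WT_VEGFB replicate 2 and 0.50 without WT_VEGFB replicate 1. Class I genes of this family are alike in sequence, and a probe of one can pick up another. The mean of the list in each heart was 0.20, 0.15, 1.17 and 0.04 in VEGFR1del_VEGFB, against 0.30 and -0.11 in WT_VEGFB, with overlap. T and NK cell markers had a median of 0.46 over 7 of 13, with 1 gene, Ccl5, at an unadjusted p under 0.05, but 0.03 over the 5 that passed without VEGFR1del_VEGFB replicate 3, where Ccl5 was at 7.67, against 5.64 to 6.25 in the other deleted hearts.

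Whether the effect of the deletion depended on the virus was tested with the interaction, (VEGFR1del_VEGFB minus WT_VEGFB) minus (VEGFR1del_Scramble minus WT_Scramble). No gene was called on 12 arrays (0%, smallest adjusted p 0.975, limma) and none on 11 arrays (0%), and at an unadjusted p under 0.05 there were 718 (5.04%) and 813 (5.76%). The 5 genes of smallest p were ILMN_1227266, Zbtb38, Rhou, Rab27a and Ergic2. The small GTPase gene Rab27a, for example, differed by 0.54 (SE 0.10) between deleted and wild-type hearts with VEGF-B and by -0.12 with scramble virus. On 11 arrays its scramble difference was -0.15.

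Genes of the VEGF-B response show the pattern by heart. Esm1 was 9.63, 9.80, 9.18 and 10.03 in VEGFR1del_VEGFB hearts, against 8.70 and 8.75 in WT_VEGFB hearts. With scramble virus it was 8.07, 7.75 and 8.36 in VEGFR1-deleted hearts, against 6.05, 5.98 and 5.67 in wild-type hearts. The groups were separate under both viruses, and the difference was 0.94 with VEGF-B and 2.16 with scramble (interaction -1.22, SE 0.29, adjusted p = 0.975, limma; -1.07 on 11 arrays). In wild-type hearts Angptl4 was at 7.96 and 7.33 with VEGF-B, against 9.54, 10.53 and 9.24 with scramble virus. Ucp3 was there at 5.85 and 5.97, against 7.61, 8.24 and 7.17. Pdk4 and Acot1 were also lower in both WT_VEGFB hearts than in any WT_Scramble heart. The deletion differences thus start from unlike levels, and Ucp3 in VEGFR1del_VEGFB hearts lay near background. Between deleted and wild-type hearts, Angptl4 differed by -0.93 with VEGF-B and -2.09 with scramble, and Ucp3 by -0.91 and -1.37. Pdk4 differed by -0.92 and -1.09, and Acot1 by -1.23 and -0.65. These scramble differences include the deleted heart with a wild-type-like Flt1 signal. On 11 arrays, without that heart, they were 2.01 for Esm1, -2.02 for Angptl4, -1.21 for Ucp3, -0.89 for Pdk4 and -0.35 for Acot1. The differences with VEGF-B kept the values given here.

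**Figure D5:**
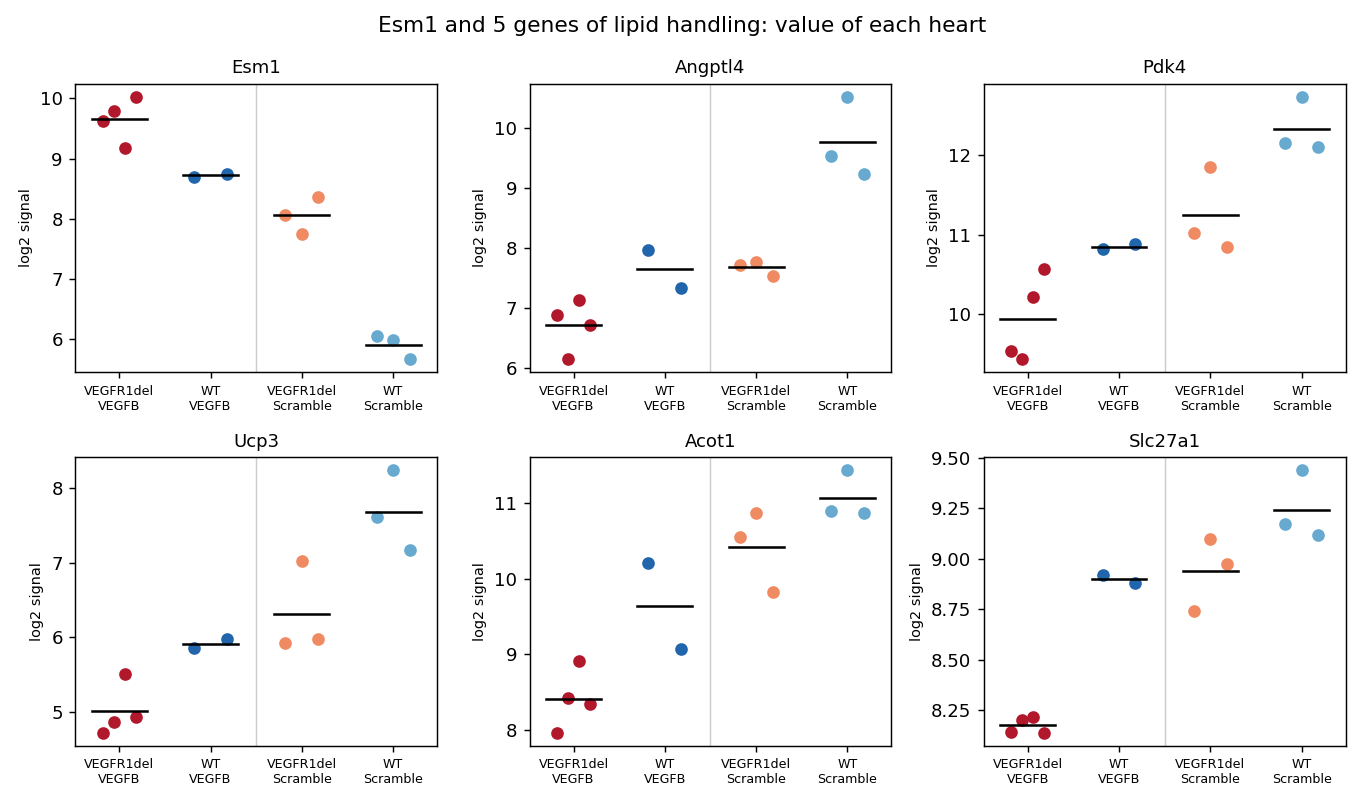
Log2 signal (y axis) of Esm1, Angptl4, Pdk4, Ucp3, Acot1 and Slc27a1, 1 point per heart with a bar at the group mean, in VEGFR1del_VEGFB, WT_VEGFB, VEGFR1del_Scramble and WT_Scramble hearts from left to right. The VEGFR1del_VEGFB hearts are the highest group for Esm1 (9.18 to 10.03) and the lowest for Slc27a1 (8.14 to 8.22).

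By list, with 11 arrays for both, fatty acid oxidation genes had a median deletion effect of -0.37 with VEGF-B and -0.08 with scramble virus (-0.15 on 12 arrays). The fetal and hypertrophic list had one of 0.41 with VEGF-B (0.19 without WT_VEGFB replicate 2) and 0.00 with scramble, and the unfolded protein list 0.29 (0.15 without WT_VEGFB replicate 2) and 0.01. Tip cell genes were at 0.44 and 0.51, pan-endothelial markers at 0.34 and 0.41, and capillary markers at 0.23 and 0.50. PPAR-alpha targets were at -0.35 and -0.20, the tricarboxylic acid cycle at -0.20 and -0.15, oxidative phosphorylation at -0.12 and -0.01, and glucose uptake and glycolysis at -0.08 and -0.11. The tip cell, pan-endothelial and capillary medians thus lay above 0 under both viruses. The fatty acid oxidation, fetal and unfolded protein medians were closer to 0 with scramble virus. So were those of PPAR-alpha targets, the tricarboxylic acid cycle and oxidative phosphorylation, but not that of glucose uptake and glycolysis. The metabolic medians given here all lay below 0 under both viruses. On 11 arrays the scramble medians rest on 2 VEGFR1del_Scramble hearts. The differences between these medians were not tested.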

How the data were processed

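Hearts of 12 mice were measured on bead arrays, 1 per heart. The table of signal intensity deposited by the authors is neither normalized nor background-subtracted, and holds a detection p-value beside each signal, per the file headers. The authors also deposited log2 values. Their columns share quantiles within 3 sets (5, 3 and 4 arrays), and how they were made is not given in the sources used here.

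For all 12 arrays together, neqc (limma 3.58.1, R 4.3.3, offset 16) corrected the background of 45281 probes and equalized their quantiles. A probe entered at a detection p under 0.05 on at least 2 arrays (20312 probes). Symbols came from the platform annotation (34885 probes with 1 symbol, 18 with several, 10378 with none), and 11009 of 14240 genes had one. With lmFit and eBayes, 1 model of 4 group means was fitted over the 12 arrays, tests were two-sided and p-values were adjusted by Benjamini-Hochberg. Precision is limited by how few hearts there are, and nothing says whether hearts of a group came from separate litters or days. The comparison, the 45 gene lists and the rule for named genes were chosen with earlier results of these data known. The rule takes all VEGF ligands and receptors, 15 genes per direction, up to 4 members of smallest p per list, the 5 of smallest p for the interaction, and Esm1, Angptl4, Pdk4, Ucp3 and Acot1. The 6 genes called on 11 arrays, where the rule does not name them, Lama5, Ano10, Lamb3, the probes ILMN_2772264 and ILMN_1247071 and the platelet list were chosen after their values were seen. Where a group was undetected, a fold is a bound over the detection floor. The pipeline was tested on simulated data. Alternatives covered background, offset, scaling, filter, probes, variance model, weights, threshold, blocks and each array left out. Figures were drawn with Python and matplotlib 3.10.9.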

Additional observations from a re-analysis of the deposited data

Results flagged for a closer look

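In the VEGFR1del_VEGFB group, 14 of 250 gene and list values had 1 heart whose gap to its nearest neighbour took up most of the group's range, where chance gives about 1 in 20. VEGFR1del_VEGFB replicate 3 was the highest heart for the mean of the antigen presentation list (1.17), the T and NK cell list (1.22) and the chemokine list (0.96), and the lowest for the haemoglobin genes Hbb-bs (14.31) and Hba-a1 (13.81). Replicate 1 was the highest for the atrial cardiomyocyte list (0.30) and the fetal and hypertrophic list (0.50), and the lowest for Eci1 (11.64), Hbegf (7.33) and the probe ILMN_2772264 (4.48). Replicate 2 was the lowest for Cxcr4 (6.90) and Pfkp (8.21). Replicate 4 was the highest for Flt4 (5.65) and the lowest for Ifi213 (7.86).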

How the results depend on the processing

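On 12 arrays the deletion with VEGF-B called 0 genes, and 0 also without a filter (2459 at an unadjusted p under 0.05), with detection on at least 4 arrays and with every probe or the mean of a gene's probes. At an adjusted p under 0.01 or with a fold of at least 1.5 the deletion could only call 0, since both tighten the rule on the same fit. It called 68 without background correction, 26 with an offset of 50, 4 with median scaling, 3 with the 6 VEGF-B arrays normalized or fitted alone, 10 with array weights, 78 with trend and robust variance, 93 on the authors' values (63 higher, 30 lower), and, chosen after seeing the data, 62 with a trend alone and 147 on 11 arrays with trend and robust variance. The cause of these differences was not tested. With each array left out in turn the deletion called 0 to 6 genes and the interaction 0 to 1. The 6 came without VEGFR1del_Scramble replicate 3, and 1, ILMN_2772264, without VEGFR1del_VEGFB replicate 1, for both contrasts. The genes at an unadjusted p under 0.05 numbered 837 without WT_VEGFB replicate 2. A lone WT_VEGFB array is assumed to vary like the other groups. The interaction otherwise called 0 genes except 3 (Ano10, Lamb3 and ILMN_1247071) on 11 arrays with trend and robust variance. Replicate numbers do not pair hearts by any label. Same-numbered VEGF-B arrays deviated with correlations of 0.05 and 0.03, and the replicate block called 0 genes (1412 at an unadjusted p under 0.05) and changed no other call. Over all genes the median came to -0.04 under median scaling and to 0.04 in the authors' table. Of the named genes under these alternatives, 5895 values kept their direction and side of the threshold, 248 passed it and 27 moved, and of the list medians 1155 stayed and 92 moved; none changed direction among values with a call. With 2 WT_VEGFB hearts, list counts depend on either one, and signals near background bound what can be seen.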

Other observations

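A list of 15 platelet genes was written after Gp5 and Mpig6b, both of them members, were seen among the lowest p, so its values are a description only. Of these 10 passed the detection filter, with a median of -0.54 (-0.165 on the authors' values), and 7 had lower and 1 (Alox12, 0.65, SE 0.16) higher signals in VEGFR1del_VEGFB hearts at an unadjusted p under 0.05. Treml1, a receptor of platelet granules, gave 4.90, 5.15, 4.94 and 4.84 in VEGFR1del_VEGFB hearts, against 5.95 and 5.82 in WT_VEGFB hearts (-0.92, SE 0.21, adjusted p = 0.153, limma). Tubb1, the tubulin of platelets, gave 5.34, 5.50, 5.49 and 5.31, against 6.15 and 5.85 in WT_VEGFB hearts (-0.59, SE 0.18). Both groups were separate, at low signals. The chemokine Ppbp differed by -0.84 (SE 0.27) and Pf4 by -0.39 (SE 0.17), and 2 were lower without WT_VEGFB replicate 1. With scramble virus the median of the list was -0.08 on 11 arrays. The summed linear signal of the 10 genes, most of it from Alox12, was 1108 to 1246 in VEGFR1del_VEGFB hearts and 969.5 to 1214 in WT_VEGFB hearts. Haemoglobin and other erythroid genes had a median of -0.15 over 5 of 6, with 0 at an unadjusted p under 0.05.

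Among smaller cell populations, the 3 measured genes of 7 for Schwann cells and neurons were all lower at an unadjusted p under 0.05 (median -0.45), Dbh by -0.69 (SE 0.24), Sox10 by -0.38 (SE 0.15) and Mbp by -0.45 (SE 0.20). Macrophage markers had a median of 0.12 over 12 of 14, with Mertk (0.32, SE 0.12) higher. Neutrophil markers had one of 0.48 over 4 of 8, with S100a9 (0.63, SE 0.25) higher and overlapping. Chemokines had one of 0.22 over 16 of 19, with 4 higher, among them Cxcl1 (0.81, SE 0.29) and Cx3cl1 (0.29, SE 0.13). The 1 measured B cell gene, Cd79b, was at 0.06 (SE 0.28). No adipocyte or mesothelium gene passed the filter, so these cells were not analysed here. Gimap genes, GTPases of lymphocytes and endothelium, had a median of 0.28 over 6 of 8, with Gimap6 (0.37, SE 0.13) and Gimap1 (0.33, SE 0.14) higher. Without WT_VEGFB replicate 2 the Schwann cell, chemokine, Gimap, macrophage and neutrophil lists had 0 such genes, and so did the TGF-beta and BMP list described next. The chemokine median was -0.07 without VEGFR1del_VEGFB replicate 3 and the macrophage median -0.07 without WT_VEGFB replicate 2, both the other way from their medians over all hearts. The Gimap median was 0.13 without WT_VEGFB replicate 1. The Schwann cell count was 1 without VEGFR1del_VEGFB replicate 3, the chemokine count 2 without VEGFR1del_VEGFB replicate 2 or WT_VEGFB replicate 1, the Gimap count 1 without VEGFR1del_VEGFB replicate 1 or WT_VEGFB replicate 1, and the TGF-beta count of higher genes 2 without VEGFR1del_VEGFB replicate 1.

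Of signalling lists, TGF-beta and BMP genes had a median of 0.13 over 24 of 31, with 4 higher, among them Eng (0.35, SE 0.14), Ltbp4 (0.42, SE 0.17) and Tgfbr2 (0.32, SE 0.13), and Bmpr1a (-0.30, SE 0.12) lower. Endothelial paracrine factors had one of 0.19 over 12 of 16, with Cxcl12 (0.25, SE 0.11) higher, and the ErbB system one of 0.08 over 6 of 14 with 0. Cell cycle genes had a median of 0.16 over 16 of 23, with Rrm2, Aurka and Cdk1 higher by 0.40 to 0.48 at signals near background (1 without VEGFR1del_VEGFB replicate 1 and 5 without replicate 4). Imprinted growth genes had one of 0.11 over 8 of 13, with Mest (0.51, SE 0.22) higher, and hypoxia targets one of -0.02 over 17 of 19, with P4ha1 (0.40, SE 0.15) higher. Immediate early genes (0.09 over 15 of 19) and circadian clock genes (0.18 over 12 of 17) had 0. The clock list had 3 higher on 11 arrays, and a median of 0.05 without WT_VEGFB replicate 2. The immediate early median was -0.31 without WT_VEGFB replicate 1 and 0.42 without WT_VEGFB replicate 2, and Egr1 was at 9.38 and 11.76 in the WT_VEGFB hearts themselves. Atrial cardiomyocyte genes had a median of -0.08 over 3 of 6, with Nppa higher and Stard10 (-0.37, SE 0.11) lower, and skeletal muscle genes one of -0.02 over 4 of 9, with Acta1 higher and Tnni2 (-0.52, SE 0.18) lower. Medians within 0.1 of 0 turned sign in several of these lists, and counts of 0 or 1 gene often changed by 1 or 2 genes when any one of the 6 hearts was left out.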
